A study of Mus musculus with 16 samples.

Results

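The genes described here make, pack, take up and sense dopamine: Th, Gch1, Ddc, Slc18a2, Slc10a4, Slc6a3 and Drd2. They are 7 of the 19938 genes measured by a named probe set, and they were picked by symbol. For each symbol the probe set with exactly 1 gene symbol and the highest mean over all 16 arrays was used, and each of the 7 had a single such probe set (10569370 for Th, 10419288 for Gch1, 10384378 for Ddc, 10464370 for Slc18a2, 10522388 for Slc10a4, 10406050 for Slc6a3 and 10585169 for Drd2). Slc10a4 has a further probe set, 10530499, that is also listed under Slc10a4l and was not used for the main values.

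The study asked whether the secreted proteins WNT1 and DKK3 change midbrain dopaminergic neurons made from mouse induced pluripotent stem cells (iPSCs). RNA was measured on 16 Affymetrix gene arrays, and the values are log2 levels after RMA, a method that corrects background, equalises the distributions of the arrays and summarises probes. All cells were Pitx3GFP/+, with green fluorescent protein (GFP) carried on a single allele of Pitx3, a transcription factor gene of these neurons, on a mixed C57BL/6 x 129/Ola strain background. By the design text every sample was sorted for GFP, whereas the labels of single samples mention the sort for embryonic cells alone. The 5 treated samples were iPSC-derived neurons differentiated with recombinant human WNT1 and recombinant human DKK3, and the 5 control samples were iPSC-derived neurons differentiated without these proteins. Both groups are labelled as biological replicates, but the number of iPSC lines or clones behind them is not given in the sources used here. The p-values therefore reflect the spread among the 10 samples, which may be technical. The primary samples were ventral midbrain neurons of E13.5 and of E14.5 embryos. Each stage had 3 technical arrays and is therefore 1 sample.

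Dopamine is made from the amino acid tyrosine in a short chain of steps. Tyrosine hydroxylase needs the cofactor tetrahydrobiopterin, and aromatic L-amino acid decarboxylase finishes the synthesis. A vesicular transporter then loads the transmitter for release, a plasma membrane transporter recovers it from outside the cell, and an autoreceptor on the same neuron senses released dopamine and dampens firing and release. Expression of the whole set is a textbook feature of mature midbrain dopaminergic neurons, and several of its genes are known targets of the nuclear receptor encoded by Nr4a2.

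Because the 7 genes were lower together in the iPSC-derived samples, as given below, the sequences just before their start sites are shown for the matches they hold. The windows come from RefSeq (build GRCm38.p6), run from 250 bases before to 50 bases after each start, and number 8 for the 7 genes, since Ddc has 2 starts. All 7 symbols were matched. Exact letters of 6 motifs were searched on both strands: the NBRE, to which the Nr4a2 protein can bind, AAAGGTCA; the cyclic AMP response element TGACGTCA; a bicoid-type site TAATCC; a forkhead site TGTTTAC; the GC box GGGCGG; and the TATA box TATAAA. A match to the cyclic AMP response element stood in the windows of Th and Slc18a2, and 1.79% of all 32851 windows in the table hold one. The NBRE was matched in 1 window of Ddc, on the opposite strand, and in 1.51% of all windows. The following 28-base stretches are shown because they hold these rarer matches, in capitals, on the strand of the gene.
Th, chr7:142900023-142900050, minus strand: agaggggcttTGACGTCAgcctggcctt
Ddc, chr11:11898200-11898227, minus strand: ctacacgcctTGACCTTTataccagcag
Slc18a2, chr19:59260864-59260891, plus strand: gcgctgtccgTGACGTCAgagccggact
The match of Th begins 45 bases before the start, that of Ddc 73 bases before, and that of Slc18a2 begins 4 bases before and reaches past the start. The match of Ddc overlaps a TATA box match on the same bases.

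The GC box was matched in 6 of the 8 windows, those of Th, Gch1, Slc18a2, Slc10a4, Slc6a3 and Drd2, and in 35.7% of all windows. A TATA box match stood in 2 of the 8, for Ddc and Gch1, against 13.6%. The bicoid-type site (7.06% of all windows) and the forkhead site (3.65%) were matched in 0 of the 8. The 250 bases before the starts of Th and Slc10a4 are printed because their control means lay farthest below their own primary means. Capitals mark every match to the 6 motifs.
Th, chr7:142899996-142900245, minus strand: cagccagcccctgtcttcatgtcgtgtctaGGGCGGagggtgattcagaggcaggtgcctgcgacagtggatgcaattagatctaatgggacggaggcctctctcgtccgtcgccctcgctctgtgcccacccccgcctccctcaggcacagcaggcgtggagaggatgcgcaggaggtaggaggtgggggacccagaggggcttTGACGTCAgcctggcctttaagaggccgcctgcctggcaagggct
Slc10a4, chr5:73006654-73006903, plus strand: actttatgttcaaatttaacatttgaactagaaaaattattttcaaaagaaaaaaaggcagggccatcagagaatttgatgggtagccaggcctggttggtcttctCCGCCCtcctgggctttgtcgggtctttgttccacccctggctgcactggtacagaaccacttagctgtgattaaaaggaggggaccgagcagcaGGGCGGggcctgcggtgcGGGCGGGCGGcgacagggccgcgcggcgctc
The capitals in the window of Th are 1 GC box and 1 cyclic AMP response element. Those of Slc10a4 are 4 GC box matches, of which the last pair overlap each other. A match describes letters and is not evidence of a bound site.

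Array medians lay between 5.85 and 6.02 and the arrays' lower quartiles between 4.32 and 4.695, so a level near 5 is low on these arrays. Such levels include background signal, and fold differences against them are lower bounds of the difference in RNA. The treated and the control array numbered 5 stood apart from the other 8 iPSC-derived arrays. The mean of 12 pan-neuronal genes was 8.15 on treated array 5 and 7.865 on control array 5, against 6.05 to 6.53 on the other 8 and 10.1 to 10.4 on the 6 primary arrays. The mean of 8 pluripotency genes was 5.38 and 5.52 on the arrays numbered 5, 7.29 to 8.73 on the other 8, and 5.30 to 5.90 on the primary arrays. The label of dopaminergic neurons was checked on 11 measured marker genes, which include 4 of the genes described here. Their mean was 9.65 to 10.1 on the primary arrays, 7.785 and 7.46 on the arrays numbered 5, and 5.81 to 6.16 on the other 8, near the array medians. The data of those 8 arrays thus go against the label, and the differences of the 7 genes and the list counts are given with and without the pair numbered 5. The markers outside the 7 genes were split on that pair. Nr4a2 (9.16 on treated and 8.67 on control array 5), En1 and En2 were higher there than on any of the other 8. Foxa1 was so on treated array 5 only. Pitx3 (6.06 and 6.16), Lmx1b (6.81 and 6.70) and Foxa2 (7.02 and 6.88) lay within the range of the other 8.

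**Figure D1:**
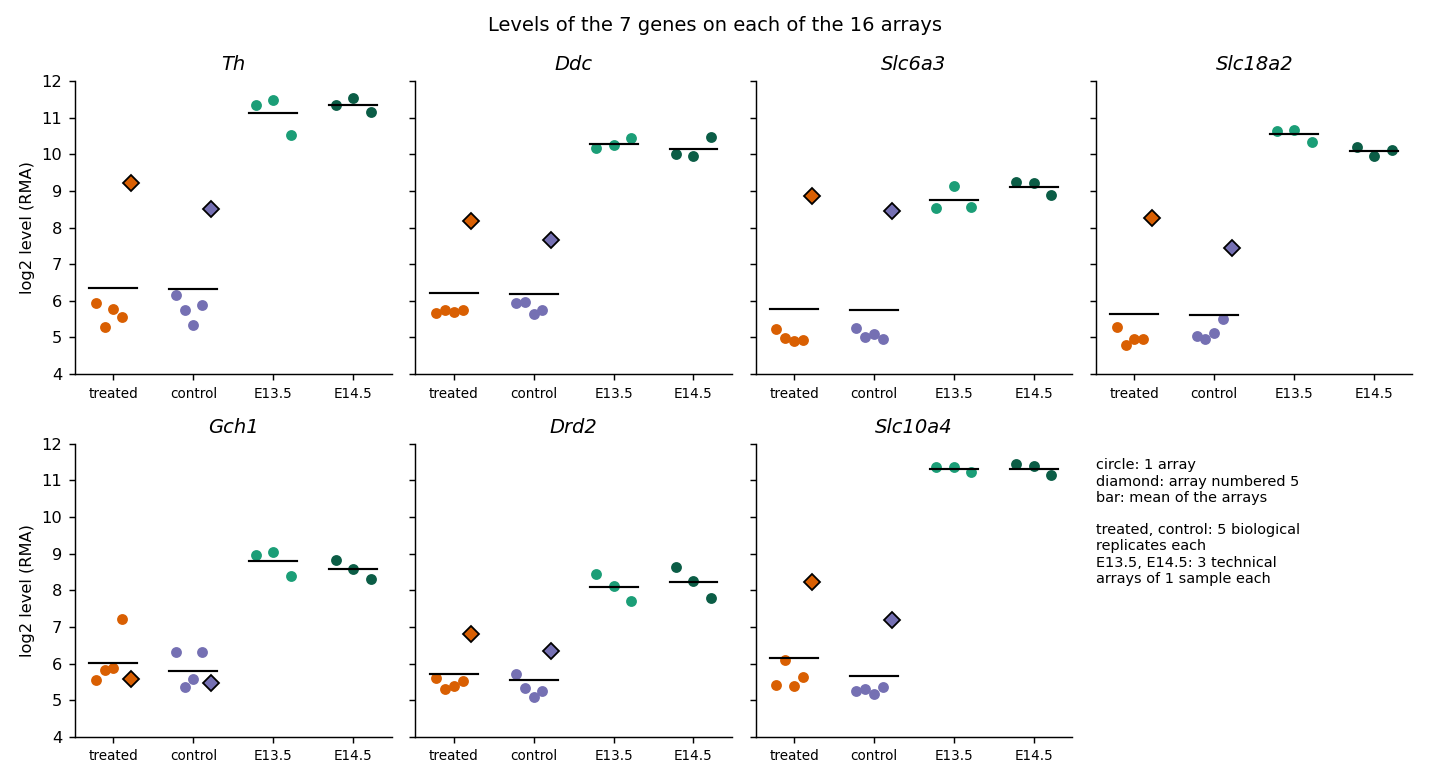
Log2 level of each of the 7 genes (vertical axis) on the treated, control, E13.5 and E14.5 arrays. Points are single arrays, diamonds are the arrays numbered 5 and bars are means. Th, Ddc, Slc6a3, Slc18a2, Drd2 and Slc10a4 are highest in their group on the arrays numbered 5, and Gch1 is highest on treated array 4 (7.22).

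The synthesis genes were far lower in iPSC-derived than in primary cells. Th encodes tyrosine hydroxylase, which converts tyrosine to L-DOPA. Its log2 level on treated arrays 1 to 5 was 5.93, 5.29, 5.79, 5.56 and 9.22. On control arrays 1 to 5 it was 6.17, 5.745, 5.34, 5.90 and 8.52. The E13.5 arrays had 11.3, 11.5 and 10.5, and the E14.5 arrays 11.4, 11.5 and 11.2. The arrays numbered 5 were the highest of each iPSC-derived group, treated and control arrays overlapped, and every iPSC-derived array lay below every primary array. The mean of the treated samples was 6.36 ± 1.62 (SD, n = 5), that of the control samples 6.335 ± 1.26 (SD, n = 5) and that of the primary samples 11.2. Control samples were lower than primary samples by a log2 difference of -4.90 (SE 0.99), a 29.8-fold difference in level (limma, Benjamini-Hochberg adjusted p = 0.00175).

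Ddc encodes aromatic L-amino acid decarboxylase, which converts L-DOPA to dopamine. Its levels on treated arrays 1 to 5 were 5.67, 5.74, 5.69, 5.76 and 8.185. Control arrays 1 to 5 had 5.95, 5.98, 5.63, 5.75 and 7.67. The primary arrays had 10.2, 10.3 and 10.4 at E13.5 and 10.01, 9.94 and 10.5 at E14.5. The 4 treated arrays other than number 5 were almost level, with an SD of 0.04, treated and control arrays overlapped, and no iPSC-derived array reached a primary one. Control samples lay at -4.02 (SE 0.67) from primary samples on the log2 scale (limma, adjusted p = 0.000446), which is 16.2-fold.

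Gch1 encodes GTP cyclohydrolase 1, the entry enzyme of tetrahydrobiopterin synthesis. It did not follow the other genes across arrays. Treated arrays 1 to 5 had 5.56, 5.83, 5.865, 7.22 and 5.58, and control arrays 1 to 5 had 6.33, 5.35, 5.57, 6.31 and 5.48. The primary arrays had 8.96, 9.04 and 8.395 at E13.5 and 8.84, 8.59 and 8.31 at E14.5. The highest treated array was number 4 and the highest control arrays were numbers 1 and 4, while both arrays numbered 5 were low, and again no iPSC-derived array reached a primary one. Control samples differed from primary samples by -2.88 (SE 0.41; limma, adjusted p = 0.000128), which is 7.38-fold.

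Slc18a2 encodes VMAT2, the transporter that loads dopamine and other monoamines into vesicles. Treated arrays 1 to 5 had log2 levels of 5.28, 4.80, 4.96, 4.97 and 8.25. Control arrays 1 to 5 had 5.035, 4.95, 5.12, 5.52 and 7.44. The E13.5 arrays had 10.6, 10.7 and 10.3 and the E14.5 arrays 10.2, 9.95 and 10.1. Outside the arrays numbered 5 the gene was near the lower quartile of the arrays, treated and control overlapped, and all iPSC-derived arrays lay below all primary arrays. The difference of control from primary samples was -4.70 (SE 0.87; limma, adjusted p = 0.000956), or 26.0-fold.

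Slc10a4 encodes a vesicular protein of the bile acid transporter family that is found in monoaminergic and cholinergic neurons, and its substrate is less settled than those of the other transporters. Its levels were 5.425, 6.11, 5.40, 5.64 and 8.24 on treated arrays 1 to 5, and 5.24, 5.29, 5.165, 5.355 and 7.20 on control arrays 1 to 5. The primary arrays had 11.4, 11.4 and 11.2 at E13.5 and 11.4, 11.4 and 11.1 at E14.5. On each number the treated array was above the control array of that number, but equal numbers were not taken as pairs. Control array 5 was above 4 treated arrays, so the groups overlapped. Control samples differed from primary samples by -5.67 (SE 0.715; limma, adjusted p = 4.96e-05), a measured 50.8-fold difference against control levels that, outside array 5, were near 5. The probe set shared with Slc10a4l had a mean of 5.53 over treated arrays and 5.47 over control arrays, and of 10.7 and 10.4 at the earlier and the later stage. On that probe set the control array was the higher one for number 2 (5.28 against 5.22) and number 3 (5.33 against 5.16).

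Slc6a3 encodes the dopamine transporter, which returns released dopamine to the neuron. Treated arrays 1 to 5 had 5.22, 4.98, 4.92, 4.94 and 8.87, and control arrays 1 to 5 had 5.27, 5.02, 5.09, 4.95 and 8.44. The primary arrays had 8.54, 9.125 and 8.575 at E13.5 and 9.24, 9.22 and 8.88 at E14.5. Treated array 5 lay within the primary range, the only case of this among the 7 genes, and control array 5 lay just under the lowest primary array. Control samples differed from primary samples by -3.18 (SE 1.11; limma, adjusted p = 0.0367), or 9.04-fold. With all arrays this call was lost in 6 of 20 alternatives, as given with the other settings. Without both arrays numbered 5 the difference was -3.85 (SE 0.14; limma, adjusted p = 9.29e-09). That pair holds the highest levels of this gene and was left out with these values known. The smaller p follows from that choice and is no added support.

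Drd2 encodes the D2 dopamine receptor, which serves as the autoreceptor of these neurons and is also made by many neurons that receive dopamine. Treated arrays 1 to 5 had 5.60, 5.30, 5.37, 5.54 and 6.80, and control arrays 1 to 5 had 5.70, 5.335, 5.10, 5.24 and 6.33. The E13.5 arrays had 8.45, 8.12 and 7.70 and the E14.5 arrays 8.64, 8.245 and 7.785. The arrays numbered 5 were highest in both groups, by a smaller step than for the transporters, and all iPSC-derived arrays lay below all primary arrays. The difference of control from primary samples was -2.61 (SE 0.39; limma, adjusted p = 0.000182), or 6.12-fold.

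Treatment with WNT1 and DKK3 was compared with control over 10 arrays. None of the 7 genes passed the threshold, an adjusted p under 0.05 in limma. Over all 19938 genes 0% were called. An unadjusted limma p under 0.05 was reached by 300 genes, a smaller share than the 0.05 that chance alone gives on average. When the replicate number entered the fit as a block, 834 genes reached it and 1 gene (Mir17) was called. The log2 difference of treated from control samples was 0.02 for Th, 0.01 for Ddc, 0.03 for Slc6a3, 0.04 for Slc18a2, 0.205 for Gch1, 0.18 for Drd2 and 0.51 for Slc10a4, each with a limma adjusted p of 1.00. Exact two-sided permutation tests over all assignments of the arrays gave p from 0.452 (Slc10a4) to 0.952 (Th and Ddc), where the smallest possible p is 0.00794. The 95% intervals were wide in this fit, which has no replicate block. They ran from -1.71 to 1.75 for Th, from -1.90 to 1.97 for Slc6a3 and from -0.74 to 1.76 for Slc10a4. Differences of over 2-fold in either direction lay inside the first 2 of these. The interval of Gch1 ran from -0.51 to 0.92 and that of Drd2 from -0.50 to 0.86, which leaves differences of under 2-fold. These widths depend on leaving out the block. The SE was 0.785 for Th and 0.878 for Slc6a3 here, and 0.168 and 0.0995 with the block. Deviations of same-numbered arrays correlated at 0.435 to 0.798 for numbers 2 to 5, but at 0.0448 for number 1. If equal numbers do mark pairs, which is not known, the limits given for Th and Slc6a3 are too wide.

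Without both arrays numbered 5, a choice made with these values known, the SD in each group was smaller for all of the 7 genes but Gch1. Again 0 of the 7 genes passed, as did 0% of all genes. The difference was then -0.15 for Th (95% interval -0.58 to 0.28), -0.11 for Ddc (-0.34 to 0.11), -0.07 for Slc6a3 (-0.31 to 0.175) and -0.15 for Slc18a2 (-0.48 to 0.175). These 4 estimates changed sign against the fit with all arrays. Gch1 was at 0.23 (-0.58 to 1.04) and Drd2 at 0.11 (-0.20 to 0.42). For Th the 4 treated arrays averaged 5.64 ± 0.28 (SD, n = 4) and the 4 control arrays 5.79 ± 0.35 (n = 4), both near the array medians. The intervals that narrowed compare low levels.

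Slc10a4 was the exception among the 7 in how its arrays lay. Without the arrays numbered 5, the 4 treated arrays (5.40 to 6.11) were all above the 4 control arrays (5.165 to 5.355). The treated mean was 5.64 ± 0.33 and the control mean 5.26 ± 0.08 (SD, n = 4 each), a difference of 0.38 with a 95% interval from 0.04 to 0.72. The exact two-sided permutation p was 0.0286, the smallest possible with 4 arrays against 4, while the limma adjusted p over all genes was 1.00 (unadjusted 0.0336), so the gene did not pass. Over all genes 0.792% were higher on all 4 treated arrays than on all 4 control arrays. On the probe set shared with Slc10a4l, the treated arrays 1 to 4 (5.44, 5.22, 5.16 and 5.03) and the control arrays 1 to 4 (5.26, 5.28, 5.33 and 4.998) overlapped.

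**Figure D2:**
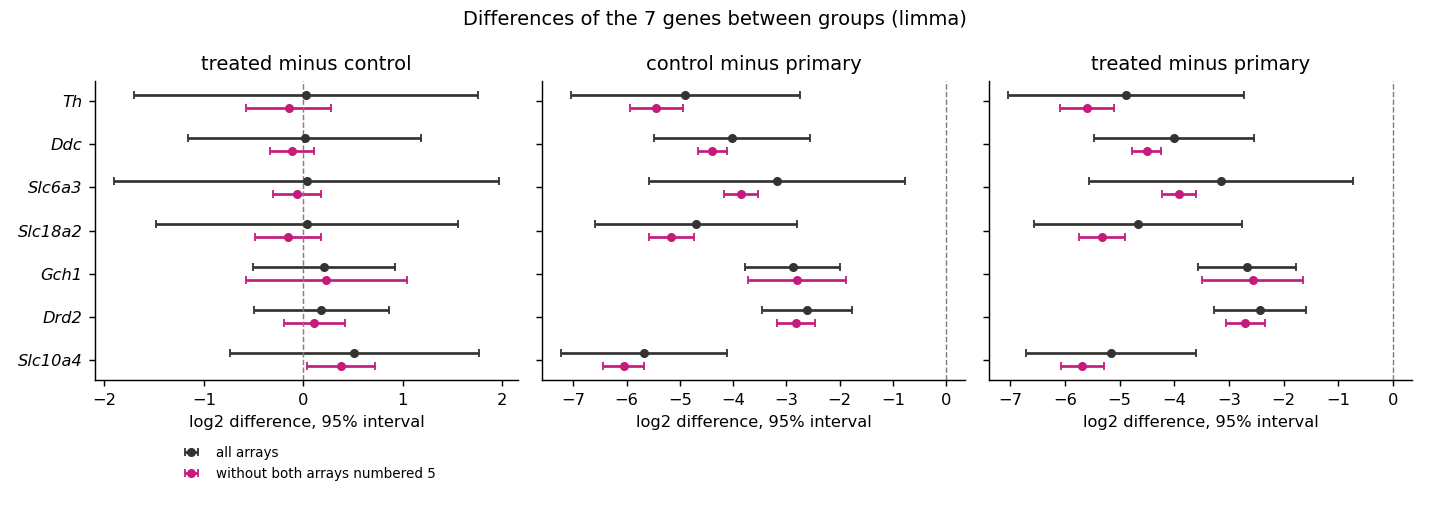
Differences of the 7 genes in 3 comparisons (horizontal axes, log2 difference with the 95% limma interval), with all arrays in black and without both arrays numbered 5 in magenta. For treated minus control the intervals hold 0 for all 7 genes with all arrays, and for all but Slc10a4 (0.04 to 0.72) without the arrays numbered 5. Both comparisons with primary samples lie below 0 throughout.

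Against primary samples all 7 genes were lower in control samples (limma, adjusted p under 0.05), where 22.5% of all 19938 genes were called lower and 19.3% higher. Every control array lay below every primary array for all 7, against 16.3% of all genes. The median of the 7 differences was -4.02, and that of all genes was -0.11 (0.0010 after quantile normalization, a shift small against these differences). Lower levels were not particular to the 7 genes. In the same comparison 12 of 12 pan-neuronal genes were called lower (median -3.68). Of 5 genes of GABAergic and glutamatergic neurons, 4 were called lower and 1 did not pass (median -2.805). All 8 mesenchyme and fibroblast genes were called higher (median 3.53). Treated samples were lower for all 7 genes as well, where 21.3% of all genes were called lower and 19.9% higher. The differences of treated from primary samples were -4.87 for Th (SE 0.99, limma adjusted p = 0.00184), -4.01 for Ddc (SE 0.67, 0.000466), -2.68 for Gch1 (SE 0.41, 0.000233) and -4.66 for Slc18a2 (SE 0.87, 0.00104). They were -5.16 for Slc10a4 (SE 0.715, limma adjusted p = 0.000106), -3.145 for Slc6a3 (SE 1.11, 0.0387) and -2.43 for Drd2 (SE 0.39, 0.000325). Here 6 of the 7 genes had no overlap between treated and primary arrays, against 15.3% of all genes, and Slc6a3 overlapped through treated array 5. Both comparisons use the same primary samples and are not independent of each other. In RNA from many cells, fewer dopaminergic cells and less of each RNA per cell cannot be told apart.

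Without the arrays numbered 5 the 7 genes stayed lower in both groups and the distances grew for 6 of them. Against primary samples, control samples were then lower by -5.44 for Th, -4.39 for Ddc, -5.16 for Slc18a2 and -6.055 for Slc10a4. Drd2 was at -2.81. Gch1 was at -2.80, slightly nearer to primary than with all arrays. Treated samples were lower by -5.59 for Th, -4.50 for Ddc, -5.31 for Slc18a2, -5.68 for Slc10a4, -3.915 for Slc6a3, -2.70 for Drd2 and -2.57 for Gch1. Outside the arrays numbered 5 the levels of Slc18a2, Slc6a3 and Slc10a4 were low, so the size of these differences is limited by background. With these arrays out, 23.6% of all genes were called lower in control and 22.8% in treated samples.

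The place of single arrays was clearest when each gene was set against its own primary mean on a linear scale. This share includes background signal and so overstates low levels. On the 8 arrays not numbered 5, Th was at 1.62 to 3.00% of its primary level, Slc10a4 at 1.40 to 2.70%, Slc18a2 at 2.19 to 3.59% and Ddc at 4.17 to 5.31%. Slc6a3 was at 6.19 to 7.91% and Drd2 at 12 to 18.3% there. On treated and control array 5, Th was at 24.8 and 15.2%, Ddc at 24.4 and 17.1%, Slc18a2 at 23.9 and 13.6%, and Slc10a4 at 11.8 and 5.75%. Slc6a3 was at 95.6 and 71.3% on these arrays, and Drd2 at 39.2 and 28.3%. Of the 7 genes, Slc6a3 stood nearest to its own primary level on both arrays. Gch1 was at 11.6 and 10.8% on the arrays numbered 5, within the 9.88 to 36.0% of the other 8, and its 36.0% was on treated array 4.

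**Figure D3:**
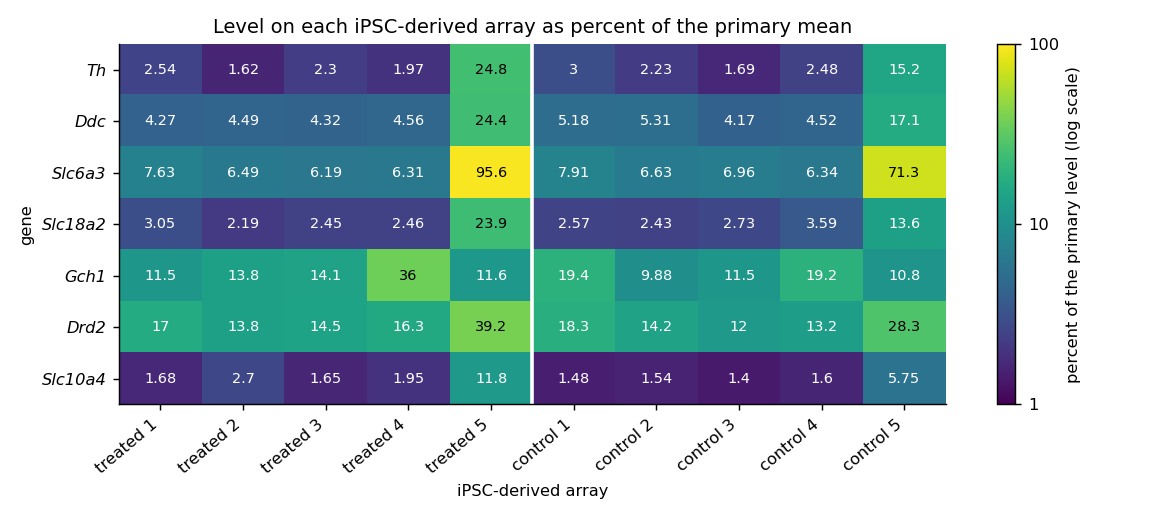
Level of each gene (rows) on each iPSC-derived array (columns) as percent of that gene's primary mean, on a logarithmic colour scale. The columns of the arrays numbered 5 are brightest for all genes but Gch1, and reach 95.6% for Slc6a3 on treated array 5.

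On the arrays numbered 5 the step over the next highest array of the same group was largest for Slc6a3, at 3.65 in log2 level (12.5-fold) in treated and 3.17 (9.01-fold) in control samples. For Th it was 3.29 (9.77-fold) and 2.35 (5.08-fold). For Slc18a2 it was 2.97 and 1.92, for Ddc 2.42 and 1.69, for Slc10a4 2.13 and 1.845, and for Drd2 1.21 and 0.63. Treated array 5 was above control array 5 for all 7 genes, by a margin that a single pair of arrays cannot test. Gch1 stood 1.64 below the highest treated array on treated array 5 and 0.85 below the highest control array on control array 5.

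Of the marker lists of other cells, some stood apart on the arrays numbered 5 and some did not. The pan-neuronal and pluripotency means were given above. The mean of 8 mesenchyme and fibroblast genes was 9.78 and 9.95 on treated and control array 5, 8.81 to 9.75 on the other 8, and 5.53 to 5.81 on primary arrays. The mean of 7 astrocyte and radial glia genes was 8.90 and 8.735, against 8.79 to 9.81 on the other 8 and 6.43 to 7.16 on primary arrays. The mean of 8 muscle genes was 7.81 and 6.91, against 6.43 to 6.80 and 5.815 to 6.19. The 5 genes of GABAergic and glutamatergic neurons had a mean of 5.97 and 5.83, against 5.02 to 5.37 and 7.38 to 7.90. The mean of the 7 lens genes stayed between 5.30 and 5.73 on all arrays. The part of other cells in the levels of the 7 genes was not tested.

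**Figure D4:**
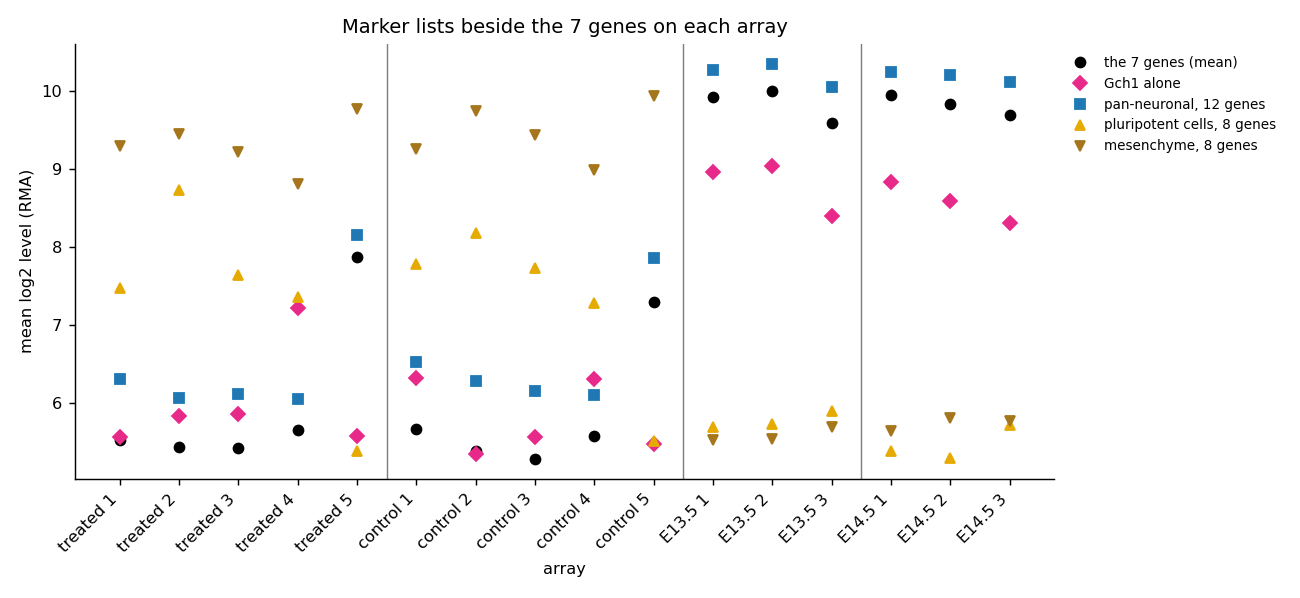
Mean log2 level of the 7 genes, of Gch1 alone and of 3 marker lists (vertical axis) on each of the 16 arrays. The 7 genes and the pan-neuronal genes are higher and the pluripotency genes lower on the arrays numbered 5 (7.88 and 7.30 for the 7 genes) than on the other 8 iPSC-derived arrays.

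Between the primary stages none of the 7 genes met the rule for a difference, means at least 1 apart in log2 level and arrays that did not overlap, which 0.241% of all genes met. No test was possible with 1 sample per stage. The E14.5 minus E13.5 difference was 0.23 for Th, -0.15 for Ddc, -0.22 for Gch1, 0.37 for Slc6a3, 0.13 for Drd2 and -0.0020 for Slc10a4. Slc18a2 was lower at E14.5 by -0.46, with means of 10.5 and 10.1, and was the only gene of the 7 whose arrays did not overlap, as for 9.68% of all genes. The technical spread was larger for Th at E13.5 (SD 0.52) than at E14.5 (SD 0.18), because 1 array at E13.5 read 10.5.

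Other genes of dopamine handling differed from primary samples in both directions. In control against primary samples, 3 of 7 measured genes of cofactor supply and recycling were higher, 1 lower and 3 did not pass (median 0.23). Of all genes 19.3% were called higher and 22.5% lower in this comparison, so 3 of 7 and 1 of 7 are not far from the background, and the counts of the lists that follow are to be read against these shares. Pcbd2, a pterin dehydratase gene, was higher by 1.67 (SE 0.20; limma, adjusted p = 3.3e-05), and Spr, the gene of sepiapterin reductase in the same route as Gch1, by 0.89 (SE 0.21), a call lost with E13.5 as the only primary sample (limma, adjusted p = 0.0968). Dnajc12, a chaperone gene for the aromatic amino acid hydroxylases, was lower by -1.90 (SE 0.19; limma, adjusted p = 8.18e-06). Of 4 measured genes of dopamine breakdown, 3 were higher and 1 lower. The monoamine oxidase genes Maoa and Maob were higher by 1.21 and 0.95, and the aldehyde dehydrogenase gene Aldh2 by 1.46, of which the last call was lost with E14.5 as the only primary sample (limma, adjusted p = 0.0600). Aldh1a1, which marks a subset of these neurons, was lower by -2.41 (SE 0.91; limma, adjusted p = 0.0499), but 12 of 20 alternatives did not call it (limma adjusted p between 2.19e-05 and 0.306), among them each of 8 that leave out a single array other than number 5. Like the transporters it was highest on the arrays numbered 5, at 9.64 and 8.985 against at most 6.99 on the other 8. Akr1b3 was not analysed here.

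Downstream of the autoreceptor, 7 of 10 measured effector genes were lower, 2 higher and 1 did not pass (median -1.09). Kcnd3, a potassium channel gene, was lower by -2.68 (SE 0.40; limma, adjusted p = 0.000171). Gnao1 and Gnaz, which encode inhibitory-class G protein alpha subunits, were lower by -2.64 and -1.87. Gnai2 and Gnai3 of the same class were higher by 1.05 and 0.87, but Gnai3 was not called with E13.5 or E14.5 as the only primary sample (limma, adjusted p = 0.1103 and 0.122). Kcnj6, Kcnj5 and Kcnj9 encode channel subunits of the inwardly rectifying kind. Kcnj6 was lower by -1.53 (limma, adjusted p = 3.29e-06) and Kcnj5 by -0.39 (limma, adjusted p = 0.0222). Kcnj9 did not pass (-0.34; limma, adjusted p = 0.0606). Their control means were low, at 4.05, 4.49 and 4.95. Without the arrays numbered 5 all 8 effector genes with a negative difference passed.

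The other dopamine receptors gave small differences. Drd5 (4.615 in control and 4.92 in primary samples) and Drd3 (4.95 and 5.05) were at low levels in both, which include background signal. Drd1 was at 5.62 and 5.94, and Drd4 at 6.67 and 5.96. Drd5 was lower by -0.31 (SE 0.115; limma, adjusted p = 0.0481), but after quantile normalization it was at -0.12 and 12 of 19 alternatives did not call it (limma adjusted p between 0.0333 and 0.486). It did not pass in treated samples (-0.27; limma, adjusted p = 0.0804), where 1 of 19 alternatives called it. Drd1 at -0.32, Drd3 at -0.10 (0.06 after quantile normalization) and Drd4 at 0.71 did not pass in control samples. Drd1 was called lower and Drd4 higher in 1 of 20 alternatives each, the 16-array fit with the sample as a random block. With its estimated correlation of -0.0476, that fit counts technical arrays nearly as separate samples. It is also among the alternatives that called Slc10a1, Slc10a6 and Dbh, given below. Of 9 measured relatives of the transporters, 1 was lower and 8 did not pass (median -0.17), and without the arrays numbered 5 Slc10a1 was called higher as well (0.73; limma, adjusted p = 0.00152). The serotonin transporter gene Slc6a4 was lower by -0.375 (limma, adjusted p = 0.0223) and was not called in 3 of 20 alternatives (adjusted p up to 0.166). The vesicular transporter genes Slc18a1 (0.02) and Slc18a3 (-0.20), the noradrenaline transporter gene Slc6a2 (0.26) and the bile acid family genes Slc10a1 (0.96, and called higher in 5 of 20 alternatives), Slc10a2 (-0.26), Slc10a5 (-0.17, and 0.07 after quantile normalization), Slc10a6 (-0.325, and called lower in 3 of 19 alternatives) and Slc10a7 (0.355) did not pass. In treated samples Slc10a7 was higher by 0.70 (SE 0.21; limma, adjusted p = 0.0203; up to 0.108 over 20 alternatives, 3 of which lost the call). Slc10a3 was not analysed here. Levels of these relatives were low too. In control and primary samples Slc10a2 was at 3.75 and 4.01, Slc10a5 at 3.79 and 3.96, and Slc10a6 at 4.38 and 4.70. Slc6a4 was at 5.18 and 5.55, and the highest was Slc10a7, at 6.025 and 5.67. Differences between low levels include background signal.

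Among genes of other aminergic neurons, 1 of 8 was lower, Slc6a4, and 7 did not pass, with the largest differences among these for Dbh, the enzyme gene of noradrenaline synthesis (-0.28, and called lower in 3 of 19 alternatives), and Slc6a2. Without the arrays numbered 5, 2 of these 8 were lower, Dbh included. With all arrays Dbh was at 4.38 in control and 4.66 in primary samples, low levels that include background signal. Of 5 measured relatives of the enzymes, 2 were lower. Gad2 and Gad1, which encode glutamate decarboxylases, were lower by -3.85 and -0.71, and Hdc, the histidine decarboxylase gene, did not pass (0.23). All 8 measured transcription factor genes of midbrain dopaminergic neurons were lower (median -3.05). En2, a homeobox gene, was lower by -4.94 (SE 0.53; limma, adjusted p = 1.38e-05), Nr4a2 by -4.31 and Foxa1, a forkhead gene, by -3.36. Fev and Lmx1a were not analysed here. Without the arrays numbered 5 the counts of the cofactor, breakdown, receptor, enzyme relative and transcription factor lists were the same. In treated against control samples 0 genes of these lists passed, with or without those arrays.

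**Figure D5:**
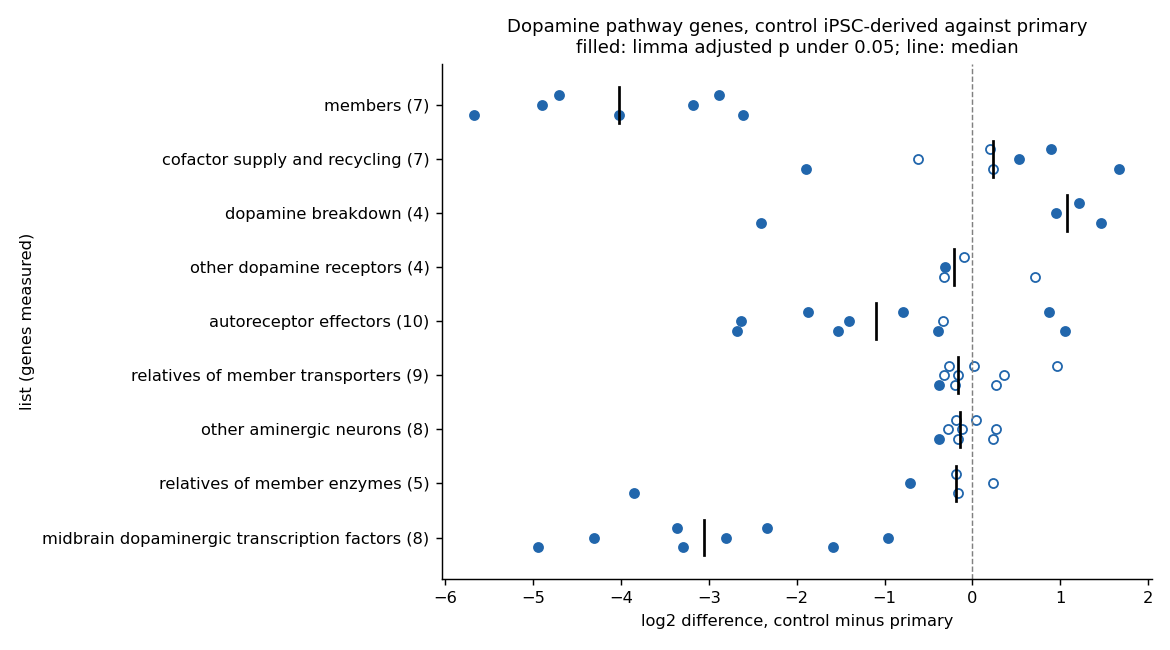
Control minus primary log2 difference (horizontal axis) of each measured gene, by list (rows, with the number measured). Filled points passed limma at an adjusted p under 0.05 and vertical lines are medians. The 7 genes (median -4.02) and the transcription factors (median -3.05) lie far to the left, and the breakdown genes (median 1.08) to the right.

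The genes most like the 7 in pattern were sought by the root mean square difference over 12 samples (10 iPSC-derived and 2 stage means), after each gene was centred on its own mean. Genes were not scaled, so the size of a gene's differences counts as well as their shape. Closest to Th were Rab3c (0.42), Elavl4 (0.43), Rit2 (0.44), Syt4 (0.445) and Gria2 (0.45). Closest to Slc10a4 were Rab3c (0.39), Ina (0.43), Syt4 (0.455), En2 (0.47) and Dcx (0.49). Of the 7 genes themselves, Slc18a2 was nearest to Th, at 0.31, closer than any of the 5 genes named for Th. Ddc lay at 0.54 from Th, Slc10a4 at 0.56, Slc6a3 at 0.70, Drd2 at 1.15 and Gch1 farthest at 1.62. Closest to the mean of the 7 were Dscam (0.165), Cacna2d3 (0.17), Erc2 (0.19), Nrxn3 (0.20) and Nyap2 (0.20), and of the 7 Ddc at 0.13. Ddc is itself part of that mean, which the other genes are not.

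Gch1 was highest on treated array 4 and on control arrays 1 and 4. The mean of 7 microglia marker genes was 5.57 on treated array 4, the highest of the 10 iPSC-derived arrays, against 5.055 to 5.43 on the other 4 treated arrays. It was 5.54 on control array 1 and 5.47 on control array 4, against 5.21 to 5.47 on the other 3 control arrays. Of the 7 markers, Csf1r, a receptor gene of microglia and other macrophages, was at 9.50 on treated array 4 and 9.35 on control array 4, the highest of each group, and at 8.63 on control array 1. It was also at 8.80 on treated array 3 and 8.55 on control array 3, where Gch1 was at 5.865 and 5.57. On treated array 4, Tyrobp (5.33), C1qa (5.21), Aif1 (4.29), Itgam (4.01), Cx3cr1 (6.33) and P2ry12 (4.32) were at or below the highest level on the other treated arrays. On control array 4, Tyrobp (4.996), Aif1 (4.10), Cx3cr1 (6.03) and P2ry12 (4.29) were the lowest of the control arrays. Itgam (4.41) was the highest there, and C1qa (5.13) lay between. The part of the cells with these markers in the level of Gch1 was not tested.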

How the data were processed

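The authors deposited log2 expression values of 35556 probe sets on 16 arrays. The submitters' processing notes name RMA and Affymetrix Expression Console 1.2. Per the labels' protocols, RNeasy kits served for extraction, and the Ovation PicoSL WTA System V2 amplified the RNA, which can add spread between arrays. A joint normalization of all arrays is not stated in the sources used here.

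Gene names came from the platform's probe table. It lists 21789 with 1 symbol, 1621 with several (left out) and not the other 12146. Symbols of 21698 were updated through RefSeq, and the probe set with the highest mean stood for each of the 999 genes with several. Tests used limma 3.58.1 in R 4.3.3 (lmFit, eBayes) with Benjamini-Hochberg adjustment over 19938 genes and calls at 0.05. The treated and control groups were compared over 10 arrays (8 residual degrees of freedom). Comparisons with primary cells used 12 samples in 3 groups (9 residual degrees of freedom), with technical arrays averaged per stage. The fits were tested on simulated data. No 2 arrays held identical values. The members, the gene lists, the rule for named genes and the left-out pair numbered 5 were chosen with earlier results of these data known. Named genes were the members, up to 3 genes per list by the size of control minus primary, all transporter relatives and other dopamine receptors, and the 5 nearest in pattern. Maob, Gnai2, Gnai3, Kcnj5, Kcnj6, Kcnj9, Mir17, Pitx3, Lmx1b, En1, Foxa2, Slc10a7 in treated samples and the microglia markers were named outside this rule, after their values were seen. A planned comparison of protein sequences was not run, for lack of a protein table. The number of arrays limits the precision.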

Additional observations from a re-analysis of the deposited data

Results flagged for a closer look

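Single arrays stood far from the others of their group for all 7 genes. In each case the gap between the extreme array and its nearest neighbour, divided by the range of the group, was above 0.710, Dixon's 95% critical value for 5 samples. Chance flags about 1 in 20 groups, or 0.7 of the 14 groups tested here, and 12 groups were marked. The genes and arrays are not independent, so the 12 are not separate events.

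Array 5 was the far one in 11 of these groups. The ratio was 0.836 for Th in treated and 0.739 in control samples, 0.963 and 0.83 for Ddc, 0.924 and 0.909 for Slc6a3, 0.861 and 0.773 for Slc18a2, and 0.751 and 0.907 for Slc10a4. For Drd2 it was 0.804 in treated samples. Gch1 was the exception, with treated array 4 as the far one (0.818) and both arrays numbered 5 among the low ones.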

How the results depend on the processing

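Against primary samples, 6 of the 7 genes kept direction and call in all 20 alternatives, for control and for treated samples. Slc6a3 lost its call in 6 of 20 in each. For control samples these were E13.5 alone (limma adjusted p = 0.167), E14.5 alone (0.129) and leaving out any of control arrays 1 to 4 (0.0623 to 0.0664). For treated samples they were E13.5 alone (0.175), E14.5 alone (0.135) and leaving out any of treated arrays 1 to 4 (0.0667 to 0.0719). With E13.5 or E14.5 as the only primary sample, which leaves fewer samples, 5527 and 5374 genes differed in control against 8346 with both, and 5417 and 5315 in treated against 8201. For treated against control no member passed under any of 19 settings, while signs changed. With each array centred on its median, Th was at -0.001 and Ddc at -0.011. Without both arrays numbered 5, Th was at -0.148, Ddc at -0.114, Slc6a3 at -0.066 and Slc18a2 at -0.153, with or without the replicate block (the block added after seeing the data). Leaving out 1 array at a time gave -0.693 to 0.568 for Th, -0.482 to 0.381 for Ddc, -0.738 to 0.705 for Slc6a3, -0.609 to 0.496 for Slc18a2, -0.096 to 0.335 for Gch1, -0.089 to 0.379 for Drd2 and -0.009 to 0.898 for Slc10a4, and the negative ends came without treated array 5, or treated array 4 for Gch1. Of the other pathway genes, Slc18a1 in control minus primary was at -0.06 with E14.5 alone and between -0.056 and 0.126 with 1 array left out, below 0 without control array 3 or 4. After quantile normalization Drd3 was at 0.062 and Slc10a5 at 0.069. E14.5 against E13.5 gave 526 genes at a difference of at least 0.5 against 48 at 1, and 80 to 105 without 1 array, where fewer arrays have to be apart.

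With the replicate number as a block, 1 gene passed in treated against control (Mir17, 0.95, limma adjusted p = 0.0153). Slc10a4 was at 0.51 (SE 0.14, limma unadjusted p = 0.00414, limma adjusted p = 0.999), and none of the 7 genes passed. The SE of Th was then 0.168 and that of Slc6a3 0.0995, smaller than without the block. Deviations of same-numbered arrays correlated at 0.0448 for number 1 and at 0.435 to 0.798 for numbers 2 to 5, the arrays numbered 1 and 3 did not correlate best with their own number, and the numbers were not taken as pairs. The 16-array fit with the sample as a random block had an estimated correlation of -0.0476. It therefore counts the technical arrays nearly as separate samples, and its calls are to be read with that limit. The search of only the 250 bases before the starts lost the match of Slc18a2.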

Other observations

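Across the 10 iPSC-derived arrays the share of genes at a lower level than Th on the same array was 31.4 to 45.9% outside the arrays numbered 5, 93.2% on treated array 5 and 86.8% on control array 5, and 98.8 to 99.5% on primary arrays. For Slc6a3 it was 24.9 to 30.4%, then 90.3 and 85.9%, and 86.3 to 92.9% on primary arrays. For Gch1 it was 33.2 to 64.3% outside the arrays numbered 5, 35.0 and 34.1% on them, and 83.5 to 91.3% on primary arrays.

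Foxa2, a forkhead transcription factor gene of the floor plate and of these neurons, was highest of each group on the arrays numbered 4, where Gch1 was also high, and was picked out after its values were seen. It was at 7.63 on treated array 4 and 7.39 on control array 4, against 6.41 to 7.02 and 6.17 to 6.94 on the other arrays of the groups. On control array 1, where Gch1 was at 6.33, Foxa2 was at 6.17. No test was made of this.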
